A study of Homo sapiens with 6 samples.

Results

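The genes described here are 45 genes of DNA replication and S phase, chosen by name from what their proteins do and grouped by role. They are 45 of the 37871 genes in the count table, each identified by 1 Ensembl ID, and all 45 had enough counts to be tested. The libraries were made from T24, a human bladder carcinoma cell line labelled as epithelial, given either vehicle or lipopolysaccharide (LPS) together with nigericin, with 3 libraries in each group. LPS comes from the outer membrane of Gram-negative bacteria and signals through TLR4, and nigericin is a potassium ionophore used to activate the NLRP3 inflammasome. All libraries came from the 1 line, no group had LPS or nigericin alone, and neither dose, treatment time nor separate cultures are given in the sources used here. The p-values therefore measure the spread between these libraries, which may be technical.

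DNA is copied once per cell cycle. In G1 the origin recognition complex, CDC6 and CDT1 load the ring-shaped MCM2-7 helicase onto origins, and at S phase entry CDC45 and the GINS complex turn it on. Polymerase alpha-primase then starts each new strand, polymerases delta and epsilon extend it on the PCNA clamp, and nucleases and a ligase join the fragments. Many of these genes are transcribed by E2F factors late in G1, so their RNA is commonly used as a readout of proliferation.

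Libraries held 66180407 to 89152224 gene counts. Levels are given in CPM (counts per 1000000 counts, after TMM scaling), in the order of libraries 1, 2 and 3 of each group, and each of the 45 genes had at least 347 counts in every library. A gene is said to have fallen or risen where the edgeR quasi-likelihood test over all 19170 tested genes gave an adjusted p under 0.05, and adjusted p-values are from that test unless another is named. A log2 change is the log2 fold change of treated against vehicle, given with its standard error (SE). The keratin genes KRT7, KRT8 and KRT18 were at vehicle means of 3351, 2709 and 1536 CPM, EPCAM was at 1.92 CPM, and CDH1, which encodes E-cadherin, had no counts in vehicle. The summed level of these and KRT19 was 6533 to 9532 CPM in vehicle and 3509 to 4510 CPM after treatment. The summed level of 4 leukocyte markers was 7.76 to 16.1 CPM in vehicle and 4.25 to 7.21 CPM after treatment. What part such shifts have in the results was not tested. The vehicle libraries differed among themselves in how their levels followed GC content, with Spearman correlations across genes of 0.41, 0.52 and 0.14. The treated libraries had the opposite trend, at -0.45, -0.35 and -0.40. Mitochondrially encoded genes made up 6.49% to 7.33% of counts in vehicle and 12.04% to 12.4% after treatment.

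After LPS plus nigericin the replication genes moved down more often than up, but not as 1 block. Of the 45 genes, 24 fell (53.3%), 7 rose (15.6%) and 14 did not pass the test. Across all tested genes 26.4% fell and 28.9% rose. The median log2 fold change of the 45 was -0.45, against 0.00157 for all tested genes. In bulk RNA, fewer cells in S phase and less of these transcripts per cell cannot be told apart. The largest falls were those of MCM5, GINS2 and CHAF1A, and the largest rises those of RFC1, POLA1 and PRIM2. The 3 treated libraries all lay below the 3 vehicle libraries for 26 of the genes and all above for 10, against 32% and 35% of all tested genes. The summed level of the 45 genes was 4333, 4552 and 4101 CPM in vehicle and 2986, 3112 and 3190 CPM after treatment. How many of these calls were lost when a library was left out depended on the library. The number lost was 8 without vehicle library 1, 0 without vehicle library 2 and 3 without vehicle library 3 (GMNN, GINS3 and RPA2), where GINS4, RFC3, RPA1 and UHRF1 passed as higher. It was 8, 6 and 7 without treated library 1, 2 or 3. The call held whichever library was left out for 17 of the 24 genes that fell and 5 of the 7 that rose.

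**Figure D1:**
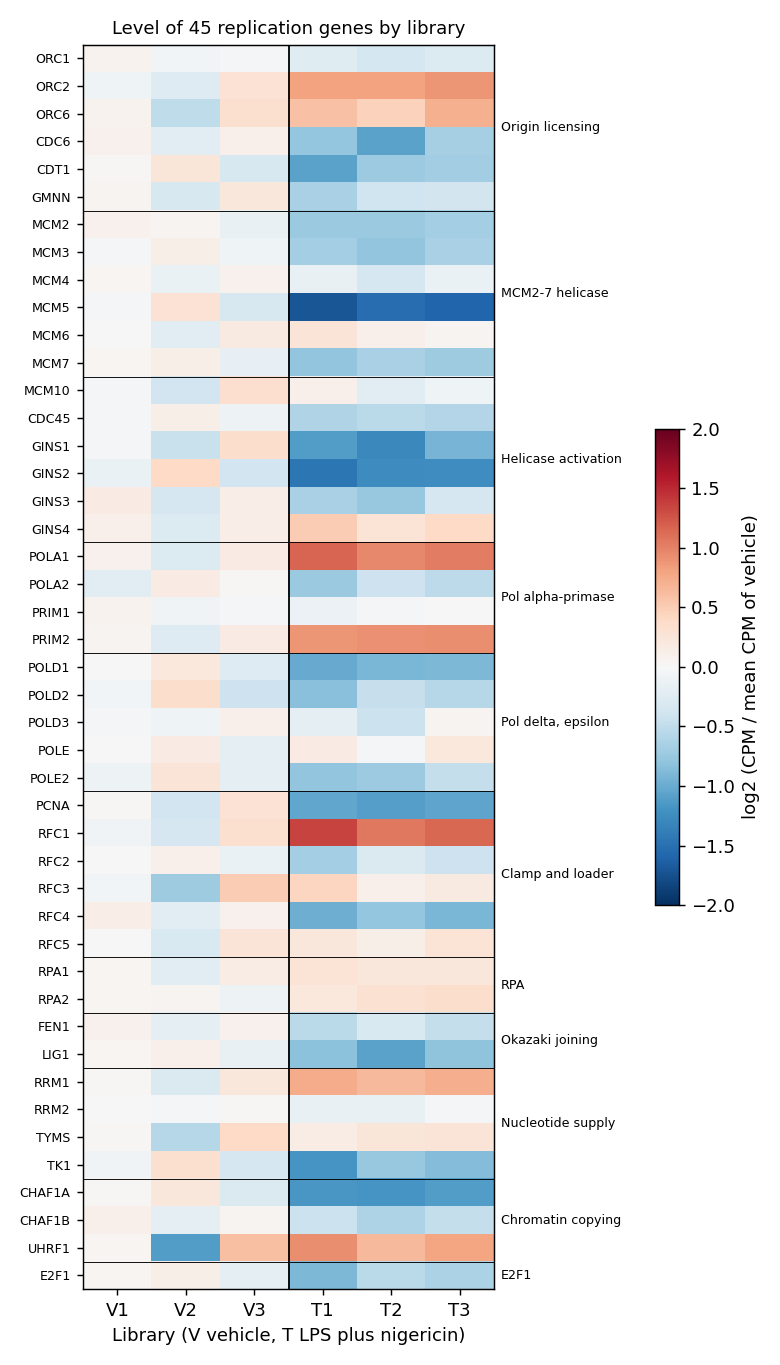
Each row is a replication gene and each column a library (V, vehicle; T, LPS plus nigericin), and colour gives log2 of the CPM over the mean CPM of the 3 vehicle libraries, blue for lower and red for higher. MCM5, GINS2 and CHAF1A are blue in all 3 treated libraries and RFC1, POLA1 and PRIM2 red. TYMS varies mostly among the vehicle libraries, and UHRF1 varies among them but is red in all 3 treated libraries.

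**Figure D2:**
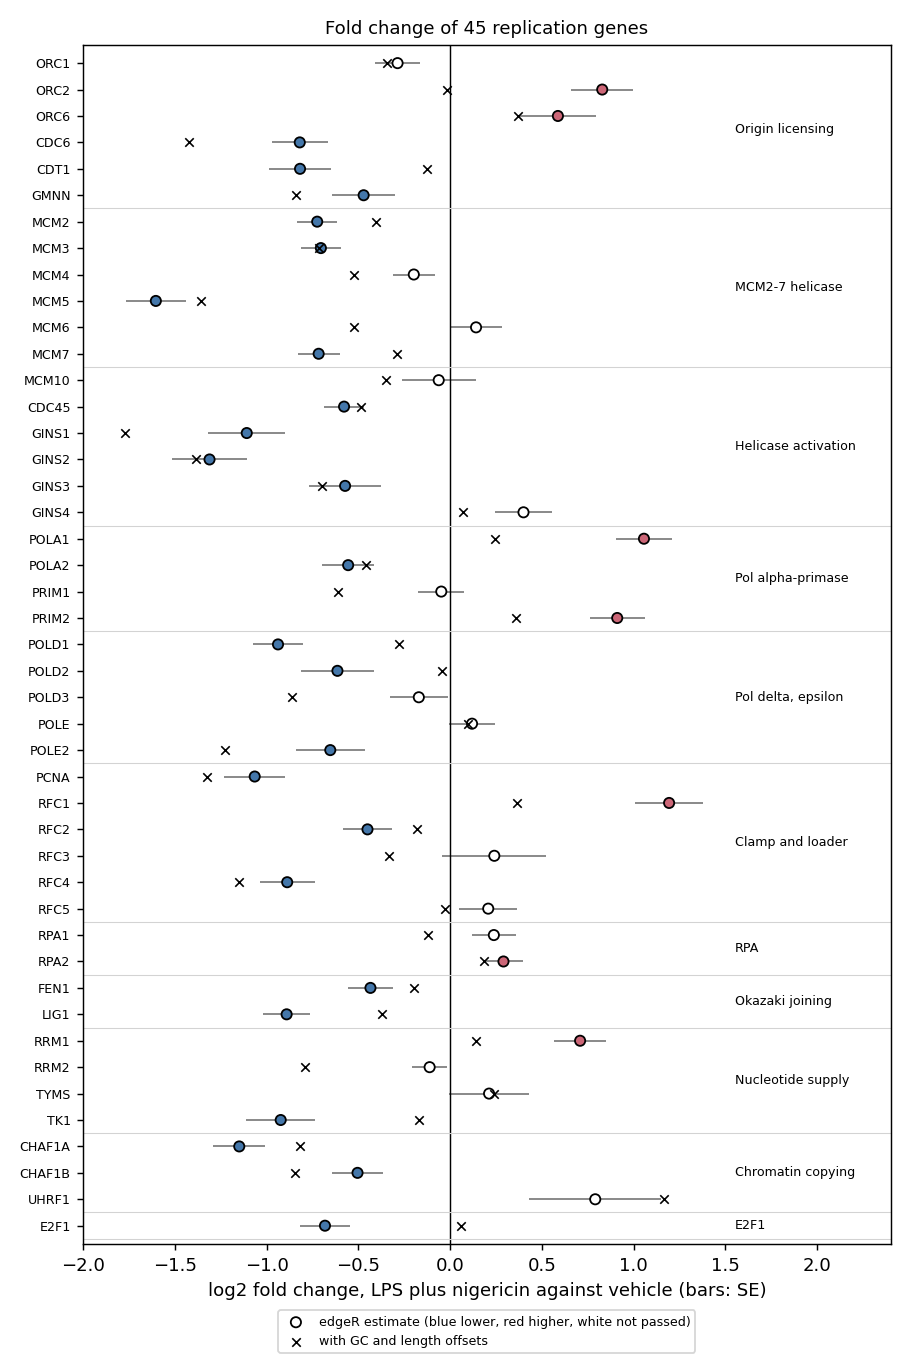
Circles give each gene's log2 fold change and bars its SE, with blue for fallen, red for risen and white for genes that did not pass; crosses give the value with offsets for GC content and transcript length. Of the 45 genes, 24 are blue and 7 red, and the crosses of POLA1, ORC2, CDT1 and E2F1 lie closer to 0 than their circles.

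The transcripts' base composition moved with these values. Across the 45 genes the log2 fold change had a Spearman correlation of -0.49 with transcript GC content, and of -0.54 across 13976 protein-coding genes. These are descriptions over genes measured in the same libraries. Of the 5 replication genes in the highest GC quintile of protein-coding genes, all 5 fell, where 61.1% of all genes of that quintile did. Of the 10 in the next quintile 8 fell and none rose, where 44.9% of all its genes fell and 15.1% rose. Of the 12 in the middle quintile 5 fell and 1 rose, where 21.5% of all its genes fell and 33.7% rose. Of the 13 in the quintile below it 5 fell and 4 rose, where 8.48% and 51.2% of all its genes did. Of the 5 in the lowest quintile, 1 fell and 2 rose, where 5.15% of all its genes fell and 58.2% rose. The genes that fell had a median GC content of 53.6% and those that rose 42.9%. A second fit used offsets for each library that remove any trend with GC content and transcript length, whether technical or caused by the treatment. With these offsets 24 of the 45 genes fell (53.3%) and 3 rose (6.67%), against 26.6% and 23.8% of 18620 genes, with a median of -0.34 against -0.06 for all genes in that fit. The fits shared 18 falls and the 3 rises of POLA1, PRIM2 and RFC1. Among these shared calls the offsets made the falls of MCM2, MCM7, POLD1 and LIG1 over 1.5 times smaller, at -0.40, -0.29, -0.28 and -0.37. They made those of CDC6, GMNN, GINS1, POLE2 and CHAF1B over 1.5 times larger, at -1.42, -0.84, -1.77, -1.23 and -0.84. CDT1, POLD2, RFC2, FEN1, TK1 and E2F1 fell only without the offsets, and ORC1, MCM4, MCM6, PRIM1, POLD3 and RRM2 passed as lower only with them. Whether the base composition trend has a part in the changes was not tested.

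**Figure D3:**
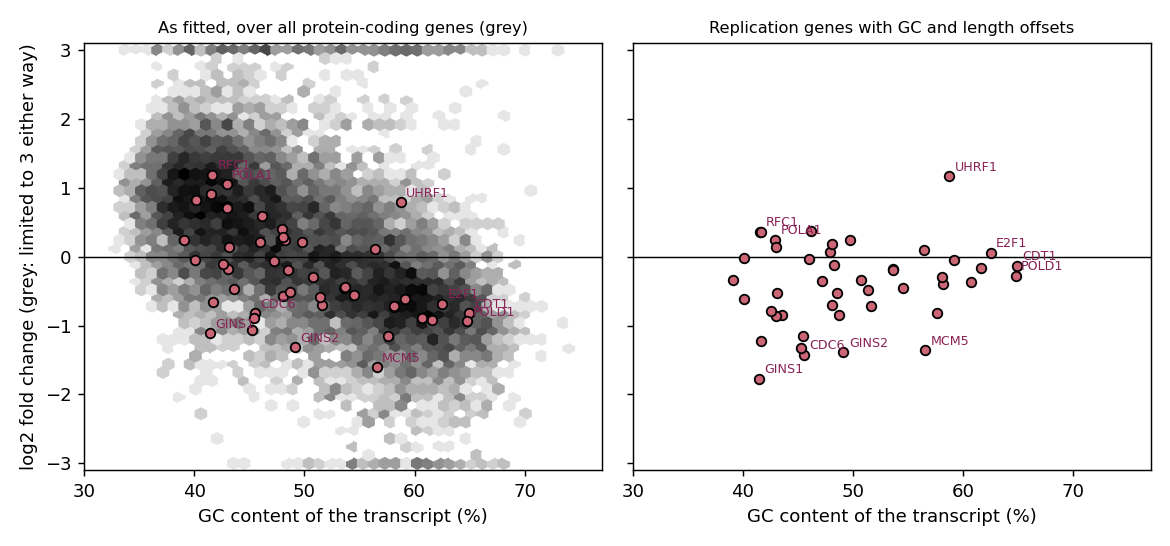
Red points are the 45 genes, with transcript GC content on the x axis and log2 fold change on the y axis, as fitted (left, over all protein-coding genes in grey) and with the offsets (right). In the left panel the points fall with rising GC content as the grey cloud does. In the right panel MCM5, GINS1, GINS2 and CDC6 are among the lowest.

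Some runs of letters that the choice of genes did not use were more frequent in the promoters of these genes than in those of all tested genes. E2F factors bind DNA with a TTT followed by a GC-rich core, and NF-Y binds CCAAT. In the RefSeq promoter table (GRCh38.p14, 250 bases before to 50 after each start), 40 of the 45 genes had an entry, and MCM4, MCM5, GINS4, RPA2 and POLD3 are named only. At least 1 of the E2F forms TTTCCCGC, TTTCGCGC, TTTGCCGC or TTTGGCGC, on either strand, was in a promoter of 20 of the 40 genes, against 6.42% of 12259 tested genes with an entry and 3.99% of all 27305 genes in the table. By promoter, it was in 40.4% of the 52 promoters of these genes and in 3.32% of all 35116. Of the genes that fell, 14 of 23 held one, as did 5 of the 11 that did not pass and 1 of the 6 that rose, POLA1. The median GC content of the promoters in these 3 sets was 67.7%, 72.2% and 59.3%, against 64.3% for tested genes. What part promoter GC content has in these counts was not tested. CCAAT, on either strand, was in 26 of the 40 (65.0%), against 42.3% of tested genes and 39.7% of all genes in the table, and in 61.5% of their promoters against 34.6% of all. Its count was 12 of 23 among genes that fell, 9 of 11 among those that did not pass and 5 of 6 among those that rose. A match is a run of letters, not a site.

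The 250 bases before the start are shown for 2 pairs of partner subunits that differed in the data, with E2F and CCAAT matches in capitals. MCM3 (minus strand, chr6:52284743-52284992) fell and MCM6 (minus strand, chr2:135876444-135876693) did not pass. POLA1 (plus strand, chrX:24693668-24693917) rose and POLA2 (plus strand, chr11:65261712-65261961) fell. All 4 hold an E2F form, and in MCM6 each of 2 runs holds a pair of overlapping forms, 1 on each strand. MCM3 holds a further E2F match that crosses its start and is not in capitals.
MCM3: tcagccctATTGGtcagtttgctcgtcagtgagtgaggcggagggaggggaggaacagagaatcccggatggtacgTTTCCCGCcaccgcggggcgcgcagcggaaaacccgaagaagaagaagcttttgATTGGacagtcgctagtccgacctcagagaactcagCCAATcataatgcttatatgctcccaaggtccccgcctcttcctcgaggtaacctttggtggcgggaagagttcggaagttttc
MCM6: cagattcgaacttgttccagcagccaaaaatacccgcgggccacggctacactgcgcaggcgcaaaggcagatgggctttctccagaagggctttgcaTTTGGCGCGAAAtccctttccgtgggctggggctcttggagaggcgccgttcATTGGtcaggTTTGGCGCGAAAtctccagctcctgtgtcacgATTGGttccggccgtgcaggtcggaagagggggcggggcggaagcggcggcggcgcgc
POLA1: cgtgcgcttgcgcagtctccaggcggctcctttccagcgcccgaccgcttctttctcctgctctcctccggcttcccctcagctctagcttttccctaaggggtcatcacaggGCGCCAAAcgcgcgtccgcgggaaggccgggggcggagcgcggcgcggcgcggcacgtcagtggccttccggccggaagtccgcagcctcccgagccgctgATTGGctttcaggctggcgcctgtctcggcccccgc
POLA2: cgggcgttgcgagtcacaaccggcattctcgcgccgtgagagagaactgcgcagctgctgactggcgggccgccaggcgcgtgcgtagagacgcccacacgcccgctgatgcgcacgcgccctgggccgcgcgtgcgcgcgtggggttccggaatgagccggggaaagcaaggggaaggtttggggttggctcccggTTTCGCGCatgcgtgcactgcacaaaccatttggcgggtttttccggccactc

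The MCM2-7 subunits form a ring of 6 different but related proteins, loaded in equal numbers, yet their transcripts moved by different amounts. MCM5 fell most, to 32.9% of its vehicle level. It was at 327, 408 and 268 CPM in vehicle and 102, 116 and 112 CPM after treatment (log2 change -1.60, SE 0.163, edgeR adjusted p = 0.000214). Every treated library lay below every vehicle library, and the value ran from -1.74 to -1.43 when any 1 library was left out. MCM5 (ENSG00000100297) lies at chr22:35400063-35425430 on the plus strand of hg38.

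MCM2, MCM3 and MCM7 also fell. MCM2 was at 174, 170 and 147 CPM in vehicle and 98.1, 97.5 and 102 CPM after treatment (log2 change -0.72, SE 0.108). MCM3 was at 109, 121 and 105 CPM and then 69.6, 64.6 and 71.5 CPM (-0.70, SE 0.109). MCM7 was at 382, 401 and 330.3 CPM and then 214, 236 and 228 CPM (-0.72, SE 0.115). None of these 3 had overlapping groups. MCM4, at 146, 130 and 151 CPM in vehicle and 128, 113 and 130.2 CPM after treatment, did not pass (log2 change -0.20, SE 0.114, edgeR adjusted p = 0.172). MCM6, whose promoter is shown above, was at 28.3, 24.5 and 32.2 CPM and then 33.9, 30.5 and 29.3 CPM, with overlapping groups (0.14, SE 0.143, edgeR adjusted p = 0.431). With the GC and length offsets all 6 subunits were lower. MCM5 was then at -1.36, MCM2 at -0.40, MCM3 at -0.72, MCM7 at -0.29, MCM4 at -0.53 and MCM6 at -0.52, so MCM6 changed direction with this choice. MCM2 shares 1113 exon bases with an antisense gene and MCM7 392 with AP4M1 on the other strand, and whether the counting used strand is unknown.

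Per kilobase of transcript, the 6 MCM subunits together were at 346, 373 and 305 CPM per kb in vehicle and 190, 195 and 198 CPM per kb after treatment. MCM5 made up 26.7%, 30.9% and 24.8% of this sum in vehicle and 15.2%, 16.8% and 15.9% after treatment. The share of MCM4 was 10.1% ± 1.76 (SD, n = 3) in vehicle and 15.3% ± 1.20 after treatment. That of MCM6 was 2.25% ± 0.535 and 4.31% ± 0.427. MCM7 made up 36.7% ± 0.508 and 39.3% ± 1.44. For these 4 subunits the groups did not overlap, and for MCM2, at 13.3% ± 0.632 and 14.1% ± 0.237, and MCM3 they did.

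**Figure D4:**
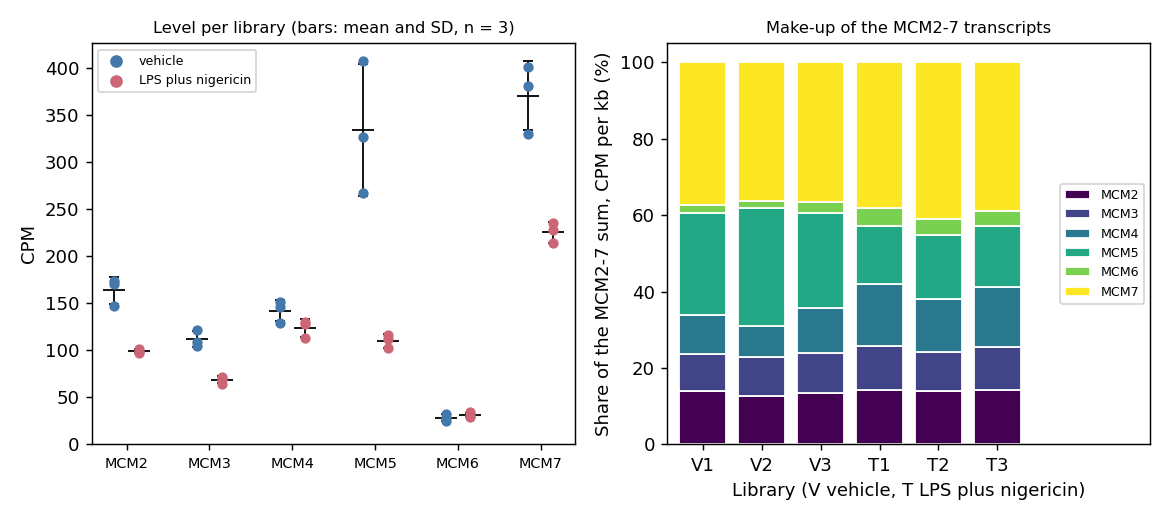
Left, CPM of each MCM2-7 subunit in each library, with mean and SD (n = 3); right, each subunit's share of the MCM2-7 sum per library after division by transcript length. MCM5 drops from 268 or more to 116 or less CPM, and its share from at least 24.8% to at most 16.8%.

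The factors that load the helicase divided between falls and rises. CDC6, the ATPase that works with the origin recognition complex in loading, fell from 52.3, 42.9 and 53.1 CPM to 29.1, 23.7 and 31.3 CPM (log2 change -0.82, SE 0.153, edgeR adjusted p = 0.00287). CDT1, which brings the MCM ring to the origin, fell from 123, 143 and 97.5 CPM to 57.8, 73.7 and 74.9 CPM (-0.82, SE 0.171), but was at -0.13 with the GC and length offsets. GMNN encodes geminin, the inhibitor of CDT1 that blocks a further round of loading. It was at 25.9, 20.02 and 29.2 CPM in vehicle and 15.9, 18.9 and 19.3 CPM after treatment (-0.47, SE 0.173, edgeR adjusted p = 0.0475). Its call was lost without any library other than vehicle library 2, with library totals and with no count filter.

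Among the origin recognition complex subunits, ORC2 rose from 9.76, 8.69 and 12.7 CPM to 18.0, 18.1 and 19.2 CPM (log2 change 0.83, SE 0.170, edgeR adjusted p = 0.00437). ORC6 rose from 33.7, 22.5 and 40.1 CPM to 48.0, 44.2 and 52.5 CPM (0.59, SE 0.207, edgeR adjusted p = 0.0411). The ORC6 call was lost without vehicle library 1 or any treated library, with library totals and with no count filter, and its value was 0.39 without vehicle library 2. ORC1, the ATPase subunit whose level varies most through the cell cycle, was at 20.5, 18.7 and 19.2 CPM in vehicle and 16.4, 15.3 and 16.1 CPM after treatment. Its groups did not overlap but it did not pass (-0.29, SE 0.124, edgeR adjusted p = 0.0805), although DESeq2 called it lower. With the offsets ORC2 was at -0.02 and ORC6 at 0.37, neither passing.

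Of the 6 genes that activate the helicase, 4 fell and none rose. GINS1 to GINS4 encode the 4 subunits of GINS. GINS2 fell from 66.9, 97.5 and 56.6 CPM to 27.0, 30.8 and 31.3 CPM (log2 change -1.31, SE 0.204, edgeR adjusted p = 0.00126), and GINS1 from 38.6, 28.8 and 49.7 CPM to 18.0, 15.9 and 20.4 CPM (-1.11, SE 0.211). GINS3 was at 13.2, 9.35 and 12.9 CPM and then 7.57, 6.97 and 9.34 CPM (-0.57, SE 0.196, edgeR adjusted p = 0.0372). Its groups met almost at the same value, and its call was lost when vehicle library 1 or 3 or treated library 1 or 2 was left out, and with library totals. GINS4 stood apart from its partners at 18.5, 14.3 and 18.8 CPM in vehicle and 24.6, 20.9 and 22.6 CPM after treatment, and did not pass (0.40, SE 0.154, edgeR adjusted p = 0.0566). Without vehicle library 3, and by DESeq2 and limma-voom, it passed as higher. CDC45, the helicase partner of GINS, fell from a mean of 84.0 ± 6.45 to 56.3 ± 1.25 CPM (SD, n = 3). MCM10, which acts in helicase activation, was at 13.7 ± 3.39 and 13.1 ± 1.41 CPM and did not pass.

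The polymerase alpha-primase complex, which lays down the RNA-DNA primer, had its subunits move in opposite directions. POLA1, the catalytic subunit, rose from 17.1, 13.3 and 18.1 CPM to 36.3, 31.6 and 33.0 CPM (log2 change 1.06, SE 0.155, edgeR adjusted p = 0.000973). PRIM2, the large primase subunit, rose from 12.5, 10.1 and 13.5 CPM to 22.1, 22.8 and 23.0 CPM (0.91, SE 0.15). POLA2, the regulatory subunit, fell from 86.4, 112 and 100.9 CPM to 59.6, 74.7 and 69.3 CPM (-0.56, SE 0.140, edgeR adjusted p = 0.0107). PRIM1, the catalytic primase subunit, was at 18.2 ± 0.915 and 17.6 ± 0.729 CPM (SD, n = 3) and did not pass. The rises of POLA1 and PRIM2 were smaller with the offsets, at 0.25 and 0.36. POLA1 and PRIM2 are also long genes, POLA1 spanning 303 kb of the X chromosome. POLA2 shares 2012 exon bases with a read-through gene, AP000944.2, so its counts are uncertain.

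Among the replicative polymerases, 3 of 5 genes fell and none rose. POLD1, the catalytic subunit of polymerase delta, fell from 152, 174 and 127 CPM to 75.2, 80.0 and 81.1 CPM (log2 change -0.94, SE 0.135, edgeR adjusted p = 0.000892). It was at -0.28 with the offsets, still past the threshold. POLD2 was at 258, 343 and 201 CPM in vehicle and 149, 194 and 181 CPM after treatment (-0.61, SE 0.199, edgeR adjusted p = 0.0302). The lowest vehicle value was close to the highest treated one, and the POLD2 call was lost without vehicle library 1 or treated library 1 or 3. Its value was -0.39 without vehicle library 2. POLE2, an accessory subunit of polymerase epsilon, was at 8.39, 10.8 and 7.91 CPM and then 5.24, 5.45 and 6.51 CPM (-0.65, SE 0.187, edgeR adjusted p = 0.0184), with the call lost without treated library 1 or 2. POLE, the catalytic subunit of polymerase epsilon, was at 114 ± 13.6 and 123 ± 10.7 CPM, and POLD3 at 22.2 ± 1.5 and 19.7 ± 3.37 CPM (SD, n = 3). Neither passed.

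PCNA, the sliding clamp that tethers polymerases to DNA, fell from 244, 184 and 292 CPM to 117, 112 and 115 CPM (log2 change -1.07, SE 0.167, edgeR adjusted p = 0.00131). The clamp is placed on DNA by replication factor C, whose largest subunit is RFC1. RFC1 rose from 15.7, 13.1 and 20.5 CPM to 41.9, 34.2 and 36.6 CPM (1.19, SE 0.187, edgeR adjusted p = 0.00129), the largest rise among the 45 genes. With the GC and length offsets RFC1 was at 0.36, still past the threshold. The small subunit gene RFC4 fell from 25.7, 19.99 and 24.9 CPM to 11.9, 13.7 and 12.4 CPM (-0.89, SE 0.149), and RFC2 fell from 79.7, 85.2 and 72.3 CPM to 49.3, 64.9 and 59.4 CPM (-0.45, SE 0.136, edgeR adjusted p = 0.0227). The RFC2 call was lost without vehicle library 1 or treated library 1 or 3. RFC3, at 15.6 ± 6.40 and 18.4 ± 2.22 CPM, and RFC5, at 31.1 ± 5.90 and 36.0 ± 1.85 CPM (SD, n = 3), did not pass. RFC3 passed as higher without vehicle library 3, which held the highest vehicle value of 22.3 CPM.

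RPA coats single-stranded DNA at the fork. RPA2 rose from 62.4, 63.2 and 56.8 CPM to 70.7, 75.1 and 77.2 CPM (log2 change 0.29, SE 0.106, edgeR adjusted p = 0.0464), the smallest change that passed among the 45 genes. This call was lost without any library other than vehicle library 2, and with RLE factors, library totals, no count filter, the stricter filter or the GC and length offsets (0.18). RPA1 was at 86.8 ± 10.7 and 102 ± 2.37 CPM (SD, n = 3), with groups that did not overlap, and passed only without vehicle library 3. On the lagging strand, LIG1, the ligase that seals Okazaki fragments, fell from 97.8, 102 and 85.2 CPM to 53.9, 45.3 and 54.3 CPM (-0.89, SE 0.127, edgeR adjusted p = 0.000847). FEN1, the flap nuclease that trims them, fell from 118, 98.3 and 118 CPM to 77.02, 89.8 and 80.4 CPM (-0.43, SE 0.121, edgeR adjusted p = 0.0166). The FEN1 call was lost without vehicle library 1 or treated library 1 or 3.

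The enzymes of nucleotide supply also differed from each other. Ribonucleotide reductase pairs the RRM1 subunit with RRM2, which is made mainly in S phase. RRM1 rose from 92.4, 74.5 and 106 CPM to 153, 142 and 151 CPM (log2 change 0.71, SE 0.143, edgeR adjusted p = 0.00405), but was at 0.14 with the offsets and did not pass there. RRM2 was at 319, 314 and 324 CPM in vehicle and 287, 289 and 310.2 CPM after treatment. Its groups did not overlap, and it did not pass (-0.11, SE 0.0973, edgeR adjusted p = 0.359). TK1, the salvage thymidine kinase and per length the most abundant of the 45 transcripts, fell from 435, 567 and 361 CPM to 202, 268 and 249 CPM (-0.92, SE 0.187, edgeR adjusted p = 0.00411), and was at -0.17 with the offsets. TYMS, thymidylate synthase, was at 71.5, 47.1 and 92.0 CPM and then 77.9, 82.6 and 83.5 CPM, and did not pass. The TYMS count is uncertain, since the gene shares 967 exon bases with ENOSF1 on the other strand.

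CAF-1 places new histones behind the fork. Its large subunit CHAF1A fell from 108, 124 and 87.3 CPM to 47.7, 47.3 and 49.0 CPM (log2 change -1.15, SE 0.143, edgeR adjusted p = 0.000495). CHAF1B was at 23.1, 19.1 and 22.5 CPM and then 16.1, 14.0 and 15.5 CPM (-0.50, SE 0.139, edgeR adjusted p = 0.0156), with the call lost without vehicle library 1 or treated library 2 or 3. UHRF1, which brings the maintenance methyltransferase to newly copied DNA, did not pass (0.79, SE 0.360, edgeR adjusted p = 0.0947). Its vehicle libraries ranged widely, at 36.7, 16.5 and 54.0 CPM, and treated libraries were at 67.8, 56.0 and 61.7 CPM. The UHRF1 groups did not overlap, but the highest vehicle value was close to the lowest treated one. UHRF1 passed as higher without vehicle library 3, and by DESeq2 and limma-voom. E2F1, an activator E2F, fell from 117, 124 and 100.2 CPM to 60.8, 78.3 and 73.7 CPM (-0.68, SE 0.138, edgeR adjusted p = 0.00413). It was at 0.06 with the GC and length offsets and did not pass, so the call of a fall depends on that choice.

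Ratios between partner transcripts within a library do not depend on how libraries are scaled, but do change with the GC and length offsets. Over 16 pairs, picked with the counts in view and so given without a test, the vehicle and treated ratios did not overlap in 14. How often ratios of other gene pairs do not overlap was not computed. Of all tested genes taken singly, 32% lay wholly lower and 35% wholly higher after treatment. Per kb, RFC1 was at a log2 ratio of -2.28 ± 0.224 to RFC4 in vehicle and -0.18 ± 0.245 after treatment (SD, n = 3). POLA1 to POLA2 was at -3.18 ± 0.392 and then -1.56 ± 0.269, and MCM5 to MCM6 at 3.63 ± 0.50 and then 1.90 ± 0.195. GINS2 to GINS4 moved from 2.59 ± 0.619 to 0.91 ± 0.224, and PCNA to RFC1 from 5.71 ± 0.0771 to 3.45 ± 0.115. With the offsets some partners' log2 changes lay closer together, at 0.25 for POLA1 and -0.46 for POLA2. So did those of MCM5 and MCM6, at -1.36 and -0.52, and of RFC1 and RFC4, at 0.36 and -1.15. Those of other pairs lay further apart, at -1.23 for POLE2 and 0.095 for POLE, and at 0.14 for RRM1 and -0.79 for RRM2. The pairs whose groups overlapped were CDT1 to its inhibitor GMNN, at 0.92 ± 0.552 and 0.57 ± 0.0558, and RPA2 to RPA1, at 0.80 ± 0.255 and 0.85 ± 0.0968.

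**Figure D5:**
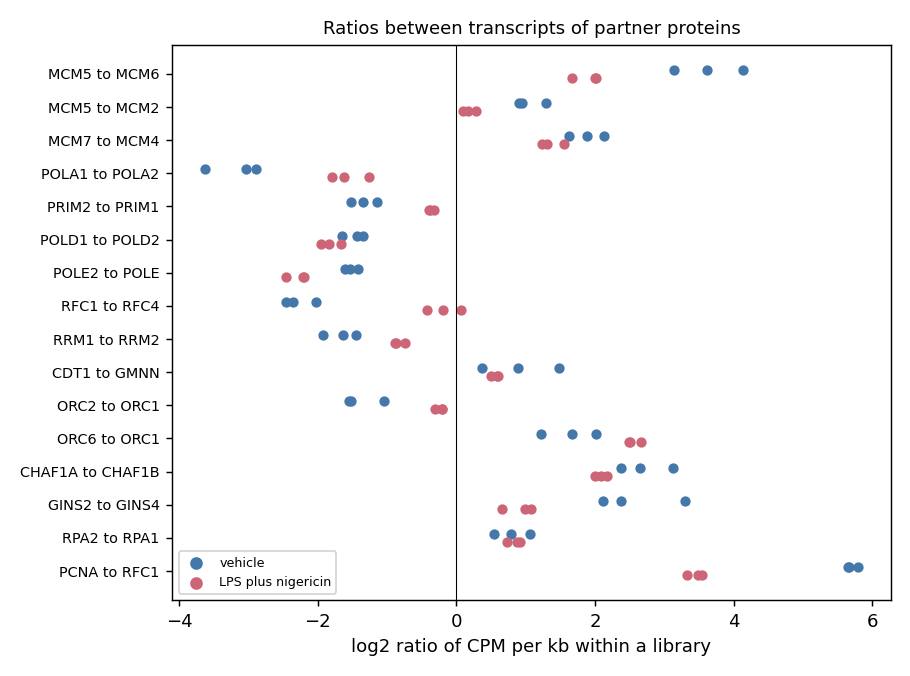
Points give the log2 ratio of CPM per kb between the transcripts of partner proteins in each library, blue for vehicle and red for LPS plus nigericin. The colours are apart in 14 of 16 rows and overlap for CDT1 to GMNN and RPA2 to RPA1. How often other gene pairs are apart was not computed.

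By level per length, TK1 led the 45 genes in vehicle at 279 CPM per kb, followed by PCNA (176), MCM7 (125), POLD2 (124), MCM5 (94.5) and RRM2 (92.9). After treatment TK1 was at 147 CPM per kb, and RRM2 (86.0), PCNA (84.4), POLD2 (80.9) and MCM7 (76.3) followed, with MCM5 at 31.1. The neighbours MCM7 and POLD2, and MCM5 and RRM2, were closer in vehicle than their spread. The lowest levels in vehicle were those of ORC2 (2.41), POLA1 (2.95) and RFC1 (3.38 CPM per kb).

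A wider list of 89 further genes of replication, its regulators and nucleotide supply was read against the same shares of all tested genes, 26.4% that fell and 28.9% that rose. Of these 89, 22 fell (24.7%), 36 rose (40.4%) and 31 did not pass, with a median log2 fold change of 0.27. The share that fell was near that of all genes. With the GC and length offsets 33 fell (37.1%) and 21 rose (23.6%), with a median of -0.08, against 26.6% and 23.8% of all genes, so that the share that rose was then near that of all genes. With library totals in place of TMM 24 fell and 19 rose. Without vehicle library 1, treated library 1 or treated library 3, the number that rose was 21, 17 or 22. The direction in which most of these genes moved therefore depends on the processing.

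Among 15 further licensing and firing genes, 10 rose (66.7%) and 1 fell (6.67%). TOPBP1, a scaffold for origin firing, rose from 27.6 ± 5.03 (SD, n = 3) to 74.0 ± 8.87 CPM (log2 change 1.42, edgeR adjusted p = 0.000392), and RECQL4, a helicase at origins, fell from 235 ± 39.5 to 129 ± 11.2 CPM (-0.86). With the offsets 3 genes of this list rose and 7 fell, TOPBP1 being at 0.54 and RECQL4 at -0.24. Of 13 fork protection and checkpoint genes, 5 rose (38.5%) and 3 fell (23.1%), and with the offsets 2 rose and 5 fell. ATR, the kinase that senses stalled forks, rose from 11.2 ± 2.18 to 29.9 ± 2.56 CPM (1.42), while its partner ATRIP fell from 80.4 ± 20.8 to 27.0 ± 2.91 CPM (-1.57). ATRIP shares 1515 exon bases with TREX1. ETAA1, an activator of ATR, fell (-1.28), as did RAD9A (-0.47), a subunit of the checkpoint clamp. With the offsets ATR was at 0.37, ETAA1 at -2.07 and RAD9A at 0.18, where RAD9A no longer passed. The RAD9A call was also lost without any library other than vehicle library 3.

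Of 15 further polymerase and loader genes, 4 rose (26.7%) and 5 fell (33.3%), including ATAD5, which unloads PCNA and rose from 4.30 ± 0.750 to 15.6 ± 0.925 CPM (1.86), and POLD4, a small polymerase delta subunit that fell from 102 ± 19.97 to 39.5 ± 6.61 CPM (-1.37). With the offsets 4 rose and 6 fell, with ATAD5 at 0.82 and POLD4 at -0.57. Of 11 further nucleotide supply genes, 4 rose and 4 fell (36.4% each), and with the offsets 2 and 3. SAMHD1, which breaks down dNTPs, rose from 63.8 ± 10.97 to 168 ± 12.7 CPM (log2 change 1.39), and UMPS, a pyrimidine synthesis enzyme, fell from 31.7 ± 2.47 to 9.96 ± 1.29 CPM (-1.67, edgeR adjusted p = 0.000136). SAMHD1 was at 0.80 with the offsets. Of 11 further chromatin copying genes, 4 fell (36.4%) and 3 rose (27.3%), and with the offsets 4 and 1. The histone chaperone gene ASF1B fell from 149 ± 9.05 to 70.5 ± 5.96 CPM (-1.08), and RBBP4, the small subunit of CAF-1 (1.19), HELLS (1.22) and MMS22L (0.90) rose. With the offsets ASF1B was at -0.59 and HELLS at 0.54, while RBBP4, at 0.26, and MMS22L, at -0.16, did not pass. The MMS22L call was also lost with library totals and without treated library 1.

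Of 24 genes of E2F, cyclin and degradation control, 10 rose (41.7%) and 5 fell (20.8%), and with the offsets 9 rose and 8 fell. SKP2, which targets cell cycle inhibitors for degradation, fell from 23.9 ± 3.43 to 10.2 ± 0.741 CPM (log2 change -1.22, edgeR adjusted p = 0.000526), and RBL1, the pocket protein p107, rose from 14.3 ± 3.59 to 31.3 ± 5.09 CPM (1.13). With the offsets SKP2 was at -1.98, and RBL1, at 0.19, did not pass.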

How the data were processed

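RNA-seq counts were analysed from 6 libraries of T24 cells, 3 per group. The deposited values are unnormalized read counts for each gene, with a column for every library, per the file headers. The genome build was hg38, per the submitters' processing notes. Aligner, counter, annotation release and strand setting were not given in the sources used here. Columns were matched to samples by library name, and 0 columns belonged to no sample.

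Genes were filtered with filterByExpr (19170 kept) and tested with edgeR 4.0.16 in R 4.3.3 (TMM, robust quasi-likelihood F test, Benjamini-Hochberg, group as the only term). SE is the absolute log2 fold change over the square root of F. GC content, length (principal transcript) and exon overlaps of at least 50 bases came from GENCODE 29 on the same assembly, and promoters from RefSeq. Chi-square per degree of freedom between replicates was 24.6 to 207, beyond sampling noise, and counting error is small beside this. Alternatives were RLE factors, library totals, DESeq2 1.42.0, limma-voom (limma 3.58.1), omitting the count filter, requiring at least 1 CPM in 3 libraries, a replicate block, offsets for GC content and length by loess (span 0.3), alone and with the block, and leaving out each library. The offsets used the 18620 tested genes with a GC and length value. The fit was also run on simulated counts with far fewer changed genes and no GC trend. These settings differ from the data, so that run does not test the calls made here. Genes are named by role, with values per library for the smallest p in each role, the genes that rose, MCM2-7, and genes whose call rests on 1 library, and in each further list for the smallest p in each direction and any count of 3 or fewer. The genes, lists and alternatives were chosen with earlier results of these data known. Figures were drawn with Python 3.11.15.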

Additional observations from a re-analysis of the deposited data

How the results depend on the processing

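Of the 24 genes that fell, 17 kept the call in every fit that left out a library and in every alternative without the GC and length offsets, and 14 also with them (CDC6, MCM2, MCM3, MCM5, MCM7, CDC45, GINS1, GINS2, POLA2, POLD1, PCNA, RFC4, LIG1 and CHAF1A). Of the 7 that rose, 5 kept it without the offsets (ORC2, POLA1, PRIM2, RFC1 and RRM1), and PRIM2 and RFC1 also in the fits with them. With the offsets 3 genes rose (POLA1, PRIM2 and RFC1), and with the offsets and the replicate block 3 rose (ORC6, PRIM2 and RFC1), POLA1 being at 0.25 there with an edgeR adjusted p of 0.0721. In these fits ORC2 was at -0.017 and -0.018, MCM6 at -0.52 in both and E2F1 at 0.061 and 0.060. The cause was not tested. Of the 89 further genes, 19 rose with library totals, 21 with the offsets and 23 with the offsets and the replicate block, against 36.

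Leaving out 1 library gave 18 to 24 genes that fell, 5 to 10 that rose, a median of -0.49 to -0.39, 16 to 24 falls and 17 to 42 rises among the 89 further genes, and 8388 to 11256 of all genes past the threshold. Fewer libraries give the test less power. DESeq2 gave 25 falls and 9 rises, limma-voom 24 and 9, RLE factors 24 and 6, library totals 22 and 5, no count filter 23 and 5, and the stricter filter 24 and 6. Same-numbered libraries did not vary together (correlations of -0.02, 0.10 and -0.02), so the numbers were not taken as pairs. With the replicate block 23 of the 45 genes fell and 8 rose, and 10409 of all genes passed. GMNN (edgeR adjusted p = 0.0517) and RPA2 (0.0915) no longer passed with the block, and GINS4 (0.0499) and UHRF1 (0.0187) passed as higher.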
